A study of Capra hircus with 11 samples.

Results

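Goat ear fibroblasts kept for 8 days in an induction medium called BFRTV, a group named BFRTV8d, were compared with naturally derived goat mammary epithelial cells, a group named GMECs. The comparison asked how far the induced cells at the end of induction differed in gene expression from the mammary cells they were meant to resemble. Both groups were profiled cell by cell in droplets, where every captured transcript is counted once as a unique molecular identifier (UMI). UMIs of each gene were summed over all cell barcodes of a group, ribosomal protein genes were left out, and the sums were scaled to CPM, counts per 1e+06 of the table's total. Genes listed in both tables with at least 10 CPM in 1 of them were compared. This gave 8451 genes, out of 13597 genes listed in both tables and 16678 genes in the 5 tables of the whole series. A further 1701 genes were listed only for BFRTV8d, 140 of them at 10 CPM or more, and 567 only for GMECs, 18 of them at 10 CPM or more.

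The BFRTV8d group came from fibroblasts seeded on dishes coated with Matrigel, a basement membrane extract, with the medium changed every 2 days. The labels list 2 samples for BFRTV8d and 2 for GMECs, while the design text gives 3 replicates for BFRTV8d. The labels do not say in which medium or at which passage the GMECs were grown, nor from how many animals either group came. As points of reference, values are also given for BFRTV0d, the fibroblasts at day 0, and for CiMECs, the induced cells after further passages in a mammary cell medium.

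The mammary epithelium is a bilayer of luminal cells, which express the simple epithelial keratins and secrete milk, and basal or myoepithelial cells, which rest on the basement membrane, express stratified keratins such as KRT5 and KRT14, and contract to expel milk. The transcription factor TP63 maintains the basal layer, whereas GATA3, FOXA1 and ELF5 are factors of the luminal lineage. Luminal cells take up lactogenic signals through the prolactin receptor, and caseins, the whey proteins and milk fat are made mainly in fully differentiated alveolar cells.

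The authors deposited 1 table per group whose barcodes carry no sample, so each group is 1 library, with no replicate error and no test. There were 10152 BFRTV8d barcodes with a median of 9089 UMIs, and 5641 GMECs barcodes with a median of 19424 UMIs, or 12007 without ribosomal protein genes. The BFRTV8d table lists no ribosomal protein gene and no barcode under 2741 UMIs, whereas 74 such genes took 35.0% of the GMECs UMIs and its barcodes start at 500 UMIs. The 2 tables were therefore prepared differently, and group, culture and table preparation cannot be told apart. The tables shared 74 barcode sequences, and without these barcodes 902 genes exceeded 4-fold in favour of BFRTV8d and 369 in favour of GMECs. Each ratio is given with its exact 95% binomial interval, and so are some shares of cells. These intervals cover counting error only and not the variation between cultures or animals. Shares of cells refer to barcodes thinned to 3000 UMIs each, which kept 10144 BFRTV8d and 4680 GMECs cells. For a gene that only 1 table lists, the ratio is an approximate lower bound. It was taken against the highest UMI sum of the genes found in the fewest cells of the other table. That sum was 9 UMIs (0.125 CPM) in GMECs and 23 UMIs (0.223 CPM) in BFRTV8d. Such a bound assumes that an unlisted gene lay at or under this sum. A gene taken out by filtering, as the ribosomal protein genes may have been, could exceed it.

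Of the 8451 genes, 900 (10.6%) exceeded GMECs by 4-fold or more in BFRTV8d, and 367 (4.34%) were lower than in GMECs by 4-fold or more. At the 2-fold limit, 2113 genes (25.0%) were higher and 1233 (14.6%) lower, and 5105 genes (60.4%) lay within 2-fold. The median log2 ratio of all genes was 0.19, with a 5th percentile of -1.89 and a 95th percentile of 3.16. The split between both directions depended on the scaling. Higher genes made up 71.0% of the 1267 genes past 4-fold with CPM, 56.9% with TMM factors (710 higher and 538 lower), 56.0% with median-of-ratios factors, and 89.7% when ribosomal protein genes were kept in the totals (1526 higher and 176 lower). These scalings moved the median of all genes by -0.33, -0.35 and 0.68 on the log2 scale, so a difference smaller than this has no fixed direction. Of the 235 genes named by rule, 168 to 235 entered each of the 14 alternatives, and none with a ratio of at least 2-fold changed direction. Other minima and the addition of genes of 1 table leave each ratio as it is. Other totals and scaling factors moved named genes by at most 0.62 on the log2 scale. Those settings could not reverse a 2-fold ratio, so only the changes of weights, depths and barcodes could have done so. Closest to the limit, EVA1C was just inside at 4.001-fold higher and CDKN1B just outside at 4.0-fold, and on the lower side LOC102189890 was inside at 4.005-fold and DNAJC9 outside at 3.996-fold.

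**Figure D1:**
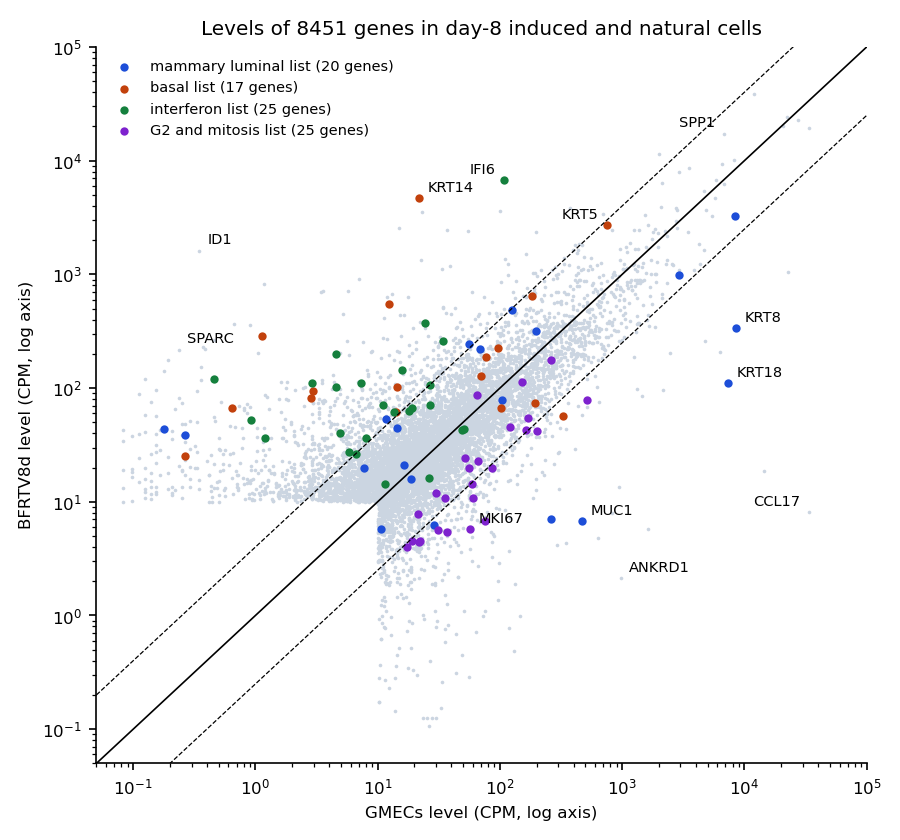
Level of each of the 8451 compared genes in BFRTV8d (vertical axis, CPM, log scale) against GMECs (horizontal axis, CPM, log scale), each point 1 gene, with the solid line at equal levels and dashed lines at 4-fold. Basal and interferon genes such as KRT14 (4659 against 21.7 CPM) and IFI6 (6707 against 107 CPM) lie above the upper line, and KRT8, KRT18, MUC1 and CCL17 lie below the lower one.

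The largest ratios in favour of BFRTV8d, among genes with at least 50 CPM in 1 table, belonged to genes nearly absent from GMECs. ID1, an inhibitor of basic helix-loop-helix transcription factors and a target of BMP signals, was at 1617 CPM in BFRTV8d and 0.346 CPM in GMECs, a 4667-fold difference (3162 to 7213), with 777 CPM in the day-0 fibroblasts. PLTP, a phospholipid transfer protein, was at 121 against 0.125 CPM (971-fold, 511 to 2123). SPARC, a matrix-binding glycoprotein, followed with 218 against 0.236 CPM (926-fold, 578 to 1590). Receptors were among those that followed. LPAR6, a lysophosphatidic acid receptor, was at 816 against 1.18 CPM (693-fold, 560 to 867), and IGF1R, the receptor for insulin-like growth factor 1, at 365 against 0.665 CPM (549-fold, 414 to 745). The hyaluronan synthase HAS3 was at 222 against 0.388 CPM, 572-fold higher. ATP6V1B1, a proton pump subunit, CERS4, a ceramide synthase, VSNL1, a neuronal calcium sensor, TNFSF15, a cytokine, MMP2, a gelatinase, SFRP1, a secreted WNT antagonist, CPO, a carboxypeptidase, PPP1R3C, a glycogen-targeting phosphatase subunit, and HCAR2, the niacin receptor, were between 348-fold (HCAR2) and 911-fold (ATP6V1B1) higher.

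At the opposite end stood genes abundant in GMECs. CCL17, a chemokine that attracts T cells, took 3.37% of all GMECs UMIs, the largest share of any gene there, at 33678 CPM, against 8.05 CPM in BFRTV8d (4183-fold lower, 3908 to 4482). It was found in 100% of GMECs cells and 1.74% of BFRTV8d cells, and was at 20336 CPM in CiMECs. LOC102169211, the gene directly after CCL17 in the RefSeq gene order of goat, showed 14555 against 18.6 CPM and was 783-fold lower (749 to 820). ANKRD1, a nuclear ankyrin repeat protein induced by mechanical load, was at 2.13 against 973 CPM (457-fold lower, 400 to 524) and reached 1226 CPM in CiMECs. Of the membrane proteins, MUC1, the mucin of the luminal surface, was at 6.77 against 473 CPM (69.8-fold lower, 64.8 to 75.4) and MAL, a protein of apical vesicle sorting, at 4.76 against 637 CPM (134-fold lower). TGM2, a transglutaminase, was 104-fold lower at 7.99 against 828 CPM. The sodium channel subunit SCNN1A, the lipid transporter SPNS2, the sulfotransferase SULT2B1, the tight junction protein CLDN6, the calcium-binding protein S100A3, the immunoglobulin receptor PIGR, the actin crosslinker FLNC and the WNT antagonist DKK1 were between 69.9-fold (DKK1) and 153-fold (S100A3) lower.

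The most abundant transcripts were partly shared. The 10 genes with most UMIs took 18.3% of the BFRTV8d total and 20.4% of the GMECs total. TMSB4X, a thymosin that binds monomeric actin, took the most in BFRTV8d (38983 CPM against 12058 CPM in GMECs), while its relative TMSB10 was nearly equal at 20304 and 20641 CPM. S100A2, a calcium-binding protein of epithelia, was at 19427 against 33619 CPM. Of the ferritin chains, FTH1 differed by 1.20-fold (22698 against 27335 CPM), whereas FTL was 5.75-fold higher in BFRTV8d (11558 against 2011 CPM). The FTH1 level rested in part on few barcodes, since 43.1% of its BFRTV8d UMIs lay in the 831 fibroblast-set barcodes described with the fibroblast genes, at 89123 CPM there and 14515 CPM in the others.

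Basal genes were higher in the induced cells. Of 17 compared genes of the basal keratin and hemidesmosome list, 13 were at least 2-fold higher (against 25.0% of all genes) and 2 at least 2-fold lower (against 14.6%), with a median log2 ratio of 2.12 against 0.19 for all genes. The same background of 25.0% higher, 14.6% lower and a median of 0.19 stands beside the counts of every other list. KRT14, the acidic keratin of basal cells, was at 4659 CPM in BFRTV8d, 21.7 CPM in GMECs, 642 CPM in fibroblasts and 279 CPM in CiMECs. It was thus 214-fold higher in BFRTV8d than in GMECs (204 to 225), and its UMIs were found in 97.2% against 2.26% of cells. KRT5, its basic partner, was present in both, at 2709 against 746 CPM (3.63-fold, 3.60 to 3.66), in 96.3% against 76.8% of cells. The pair therefore differed far less in KRT5 than in KRT14. Among day-0 cells after thinning, 18.5% held a UMI of either keratin, so the day-0 KRT14 level came from a minority of cells. KRT6A, a keratin of activated epidermis, was at 554 against 12.4 CPM (44.8-fold, 41.9 to 47.9). COL17A1, the transmembrane collagen of hemidesmosomes, was at 288 against 1.12 CPM (257-fold, 207 to 323). TP63 was listed only for BFRTV8d, at 133 CPM, which is at least 1069-fold higher, and was at 6.53 CPM in fibroblasts and 0.47 CPM in CiMECs.

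The remaining basal genes were not uniform. The cadherin CDH3 was 104-fold higher, the Notch ligand JAG2 96.5-fold, the cytolinker DST 31.6-fold, SOX15 29.0-fold and the TP63 target TRIM29 7.18-fold. Receptors of basal cells differed less: EGFR was 4.36-fold, the integrin chains ITGB1, ITGB4 and ITGA6 3.54-fold, 2.40-fold and 2.34-fold higher. LAMB3, a laminin chain of the basement membrane, was at 56.8 against 326 CPM and so 5.74-fold lower (5.58 to 5.91), and LAMA3, another laminin chain, was at 66.6 against 102 CPM. ITGA3, another laminin receptor chain, was 2.59-fold lower. BNC1, a transcription factor of basal keratinocytes, was listed only for BFRTV8d at 13.2 CPM. KRT15 and KRT17 are listed in neither table.

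**Figure D2:**
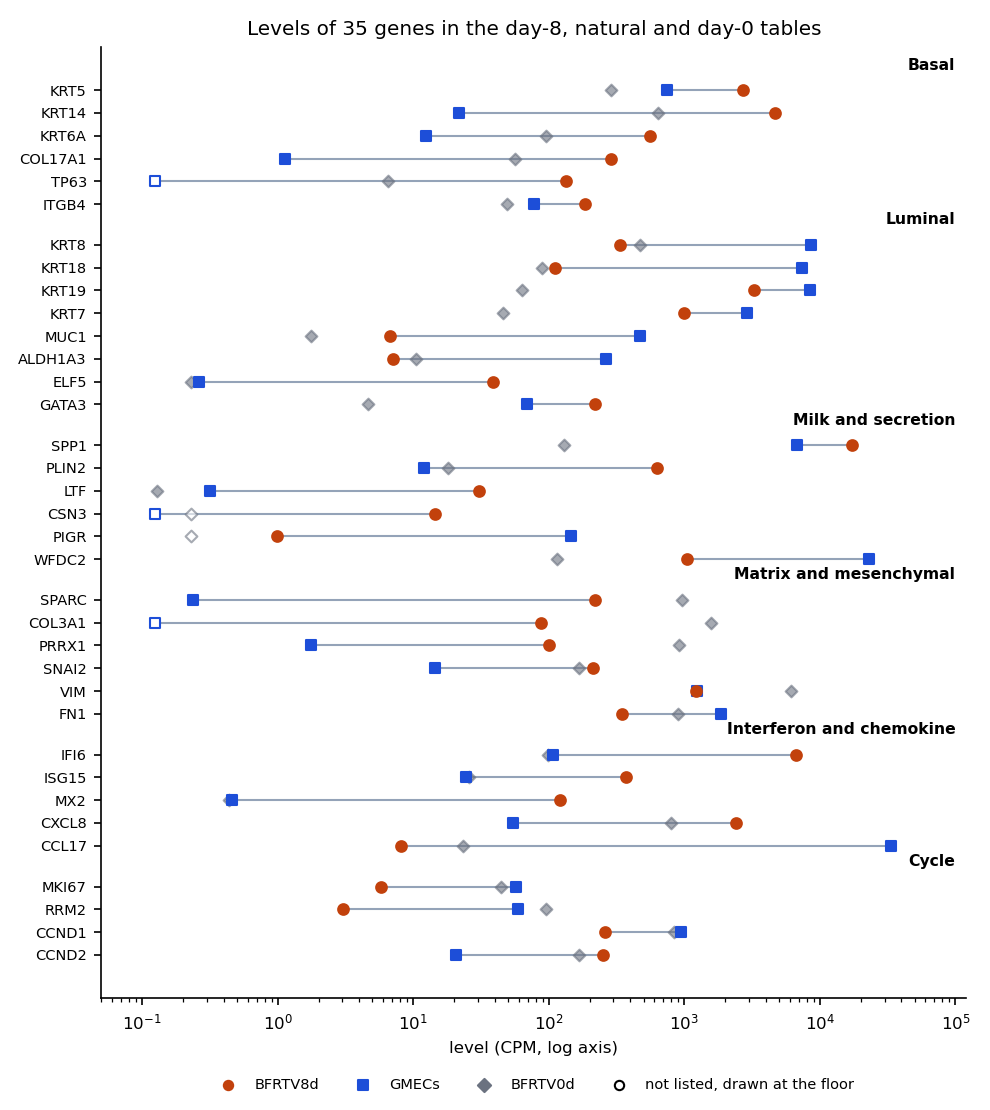
Levels (CPM, log axis) of 35 genes in BFRTV8d (circles), GMECs (squares) and BFRTV0d (diamonds), a line joining the first 2, open symbols marking genes a table does not list and drawn at its floor. The basal genes and SPP1, PLIN2, IFI6 and CXCL8 stand to the right in BFRTV8d, and KRT8, KRT18, MUC1, WFDC2, CCL17 and MKI67 to the right in GMECs.

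Luminal genes differed in both directions. The 20 compared members gave 8 at least 2-fold higher, 7 at least 2-fold lower and a median log2 ratio of 0.07, which lies within the shift between scalings. Their summed level was 6387 CPM in BFRTV8d and 28676 CPM in GMECs, because the most abundant members were lower. KRT8 was at 338 against 8565 CPM (25.4-fold lower, 25.1 to 25.7), with 469 CPM in the day-0 fibroblast table. KRT18, its partner in simple epithelia, was at 110.3 against 7373 CPM (66.9-fold lower, 65.6 to 68.1), with 89.3 CPM in fibroblasts and 4793 CPM in CiMECs. Both keratins were found in nearly all GMECs cells (99.98% and 99.4%) but in 56.1% and 25.1% of BFRTV8d cells. KRT19 and KRT7 differed less. KRT19 was at 3291 against 8424 CPM (2.56-fold lower) and KRT7 at 988 against 2918 CPM (2.95-fold lower), and in fibroblasts they were at 63.6 and 46.2 CPM. After thinning, 15.5% of day-0 cells held any UMI of KRT7, KRT8, KRT18 or KRT19. The day-0 levels of these keratins thus came from a minority of cells. ALDH1A3, an aldehyde dehydrogenase of luminal progenitors, was at 7.06 against 263 CPM (37.2-fold lower, 34.5 to 40.1), and the epithelial ETS factor ELF3 at 6.24 against 28.7 CPM (4.59-fold lower).

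Other luminal genes were higher in BFRTV8d. ELF5, an ETS factor of the alveolar lineage, was at 38.9 against 0.263 CPM (148-fold, 94.6 to 246), and TFAP2B, an AP-2 factor, at 43.8 against 0.18 CPM (243-fold, 142 to 457). Both were detected in a minority of the induced cells, with UMIs in 9.67% and 12.7% of them after thinning. EHF, a further ETS factor, was at 488 against 125 CPM (3.90-fold, 3.82 to 3.99), GATA3 at 221 against 69.0 CPM (3.20-fold, 3.11 to 3.30) and FOXA1 at 45.0 against 14.3 CPM (3.15-fold, 2.95 to 3.38). TFAP2C and the prolactin receptor PRLR were listed only for BFRTV8d, at 26.5 and 12.5 CPM, at least 212-fold and 100-fold higher. The surface markers CD24 and ITGA2 were 4.39-fold and 4.61-fold higher, and the transcription factor TBX3 2.55-fold. The growth factor AREG, the receptor ERBB3, the stem cell antigen PROM1, the secretory factor XBP1 and the prolactin signal transducer STAT5B differed by less than 2-fold, and the oestrogen receptor ESR1 was at 0.358 against 0.374 CPM.

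Keratins of both layers were found together in most cells of both groups. After thinning, 97.4% of BFRTV8d cells (exact interval 97.0 to 97.7) and 77.2% of GMECs cells (75.9 to 78.4) held UMIs of a basal keratin (KRT5 or KRT14) and of a luminal keratin (KRT7, KRT8, KRT18 or KRT19). In the day-0 fibroblasts, at a median of 10070 UMIs per barcode before thinning, 8.45% held both and 74.5% neither. Within the BFRTV8d table, the 831 barcodes with at least 2 UMIs of a fibroblast marker set, described with the fibroblast genes, held both in 76.4% (73.4 to 79.3), against 99.3% of the other barcodes, with a median of 6 basal and 3 luminal keratin UMIs against 20 and 12. Their median depth was 12624 UMIs, against 8875 for the others. In the BFRTV8d table, most barcodes that carry fibroblast transcripts thus held both keratin classes. This share was measured in BFRTV8d only and is no benchmark for GMECs, where the keratin levels differed. Free RNA, mixed droplets and expression by the cell itself were not told apart. Luminal keratins alone were found in 22.8% of GMECs cells (21.6 to 24.1) and 0.966% of BFRTV8d cells. Basal keratins alone were found in 1.33% of BFRTV8d cells and in 0 of 4680 GMECs cells, but luminal keratins made up 27280 CPM of the GMECs table, so a cell without any such UMI could hardly be seen there. The amounts per cell were opposed between the groups. The median BFRTV8d cell held 19 basal and 11 luminal keratin UMIs per 3000, with 10th to 90th percentiles of 7 to 39 and 3 to 28.7, while the median GMECs cell held 2 basal (0 to 5) and 64 luminal keratin UMIs (26 to 133). The share of BFRTV8d cells with both was 99.8% without thinning and 93.6% at 1500 UMIs, while that of GMECs was 88.8% and 59.6%, so the GMECs share depended on depth.

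**Figure D3:**
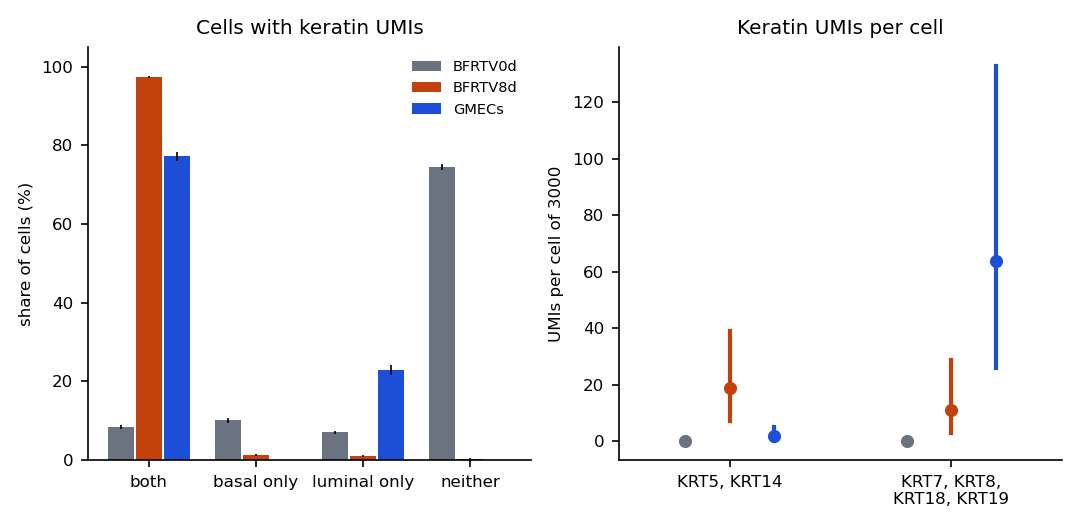
Left, share of cells (%) with UMIs of basal keratins, luminal keratins, both or neither in BFRTV0d, BFRTV8d and GMECs, after thinning to 3000 UMIs, with exact 95% binomial intervals as error bars. Right, UMIs per cell of the basal pair KRT5 and KRT14 and of the luminal keratins KRT7, KRT8, KRT18 and KRT19, points at the median and lines from the 10th to the 90th percentile, with BFRTV8d at 19 and 11 and GMECs at 2 and 64.

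Genes of milk secretion were present in part. Of 8 compared members of the milk protein and secretion list, 4 were at least 2-fold higher and 3 lower by the same factor or more, with a median log2 ratio of 1.06. SPP1, osteopontin, a phosphoprotein of milk, was at 17305 CPM in BFRTV8d, 6798 CPM in GMECs, 7842 CPM in CiMECs and 129 CPM in fibroblasts. It was 2.55-fold higher in BFRTV8d than in GMECs (2.54 to 2.55) and was found in 99.6% and 97.1% of cells. PLIN2, which coats cytoplasmic lipid droplets, was at 630.2 against 12 CPM (52.4-fold, 49.0 to 56.1), in 76.1% against 3.59% of cells. The iron-binding milk protein LTF was at 30.7 against 0.319 CPM (96.4-fold, 64.1 to 152) and occurred in 5.78% of BFRTV8d cells. B4GALT1, the galactosyltransferase of lactose synthesis, was 2.82-fold higher at 64.0 against 22.7 CPM, and MFGE8, a milk fat globule protein, 1.71-fold higher at 36.9 against 21.7 CPM.

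CSN3, kappa-casein, was listed only for BFRTV8d, at 14.5 CPM, at least 116-fold higher. The caseins CSN1S1, CSN2 and CSN1S2 and the whey proteins LALBA and PAEP were listed in none of the 5 tables, although RefSeq holds these symbols for goat. In the other direction, PIGR, which carries immunoglobulin A into milk, was at 0.987 against 145 CPM (147-fold lower, 121 to 181), in 0.197% against 31.4% of cells. CIDEA, a lipid droplet protein needed for milk fat secretion, was at 14 against 53.4 CPM (3.83-fold lower), and LCN2, an iron-sequestering defence protein, at 5.84 against 12 CPM (2.06-fold lower).

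Genes of lipid synthesis were mixed. Among 15 milk fat genes, 3 were at least 2-fold higher and 3 lower, with a median log2 ratio of 0.14. The fatty acid binding protein FABP5 was at 989 against 116 CPM (8.54-fold, 8.35 to 8.73) and the lipoprotein receptor VLDLR at 22.7 against 3.78 CPM (6-fold), while fatty acid synthase FASN was at 25.9 against 67.0 CPM (2.59-fold lower) and INSIG1, a sterol-regulated anchor protein, 4.79-fold lower. LOC100861279, for which RefSeq gives the name A-FABP, the adipocyte fatty acid binding protein, was listed for BFRTV8d at 282 CPM and not for GMECs. Of 16 cholesterol synthesis genes, 5 were at least 2-fold lower and 1 higher, with a median log2 ratio of -0.75 (-0.12 with ribosomal protein genes kept in the totals). MVD, HMGCS1 and FDPS, enzymes of the mevalonate steps, were 3.94-fold, 3.90-fold and 3.74-fold lower, and TM7SF2, a sterol reductase, was 4.92-fold higher.

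Mucosal secretory genes diverged within their list. Of 8 compared genes, 3 were past 2-fold upward and 4 downward, and the median log2 ratio of -1.44 turned to 2.68 when a minimum of 50 CPM was asked and to 5.97 with genes of 1 table at the floor. WFDC2, a secreted protease inhibitor domain protein, was the fourth most abundant gene of GMECs at 22931 CPM, against 1043 CPM in BFRTV8d (22.0-fold lower, 21.8 to 22.1). Its UMIs were still found in 78.9% of BFRTV8d cells, against 100% of GMECs cells. By contrast, TFF3, a trefoil peptide of mucus, was at 114 against 1.81 CPM (62.6-fold, 52.7 to 74.9) and AGR2, a disulfide isomerase of mucin folding, at 72.2 against 0.845 CPM (85.5-fold, 66.5 to 112). TFF3 and AGR2 were found in 9.29% and 10.5% of BFRTV8d cells. The transmembrane mucin MUC13 was listed only for BFRTV8d, at 74.7 CPM, and C28H10orf99, an antimicrobial chemokine-like peptide, likewise at 253 CPM, at least 2029-fold higher.

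Genes of epithelial junctions differed in both directions. Among 29 compared members, 5 were past 2-fold upward and 9 downward, with log2 ratios from -3.66 to 6.70, and the median was -0.35, or 0.43 with ribosomal protein genes kept in the totals. The summed level was 3675 CPM in BFRTV8d, 3086 CPM in GMECs and 479 CPM in fibroblasts. CDH1, E-cadherin, was at 59.6 against 127 CPM (2.14-fold lower) and EPCAM at 159 against 323 CPM (2.03-fold lower), while the desmosomal proteins JUP and DSP differed by 1.02-fold and 1.79-fold. The claudins separated: CLDN3, a claudin of simple epithelia, was at 21.7 against 275 CPM (12.7-fold lower, 12.1 to 13.2) and CLDN7 at 37.1 against 209.8 CPM (5.66-fold lower), but CLDN1 and CLDN4 were within 2-fold. PERP and DSC3, proteins of desmosomes in stratified epithelia, were 5.21-fold and 4.59-fold higher, and the epithelial transcription factors OVOL1 and GRHL1 34.4-fold and 7.56-fold higher.

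Fibrillar collagens and other fibroblast genes were detectable in the day-8 table and absent or nearly absent from that of GMECs, whereas cytoskeletal and matrix genes of the same list were abundant in both. Of 11 compared genes of the fibroblast list, 7 were at least 2-fold higher and 2 lower, with a median log2 ratio of 2.98. A further 15 members were listed only for BFRTV8d, 10 of them at 10 CPM or more, and 0 only for GMECs. Among all genes, 1701 were listed only for BFRTV8d, 140 of them at 10 CPM or more, and 567 only for GMECs. The summed level of the list was nearly equal, at 4852 CPM in BFRTV8d and 4490.02 CPM in GMECs, with 28957 CPM in fibroblasts, and the median thinned cell held 11 and 12 of its UMIs. The fibrillar collagens COL3A1 and COL1A1 were at 87.2 and 38.3 CPM, against 1584 and 3828 CPM in the day-0 fibroblasts, and were not listed for GMECs. The small proteoglycans LUM and DCN were at 37.3 and 13.7 CPM. PRRX1, a homeobox factor of limb and skin mesenchyme, was at 101 against 1.77 CPM (57.0-fold, 47.9 to 68.4) and at 913 CPM in fibroblasts. VIM, the intermediate filament of mesenchymal and cultured cells, was nearly equal in the summed tables, at 1212 against 1237 CPM. The fibroblast-set barcodes held 33.8% of its BFRTV8d UMIs, with 3735 CPM there and 901 CPM in the other BFRTV8d barcodes. FN1, fibronectin, was at 348 against 1870.1 CPM (5.38-fold lower, 5.32 to 5.44) and TNC, tenascin C, at 14.7 against 82.6 CPM (5.64-fold lower).

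Part of this signal came from a minority of the barcodes. The 9 genes of the fibroblast marker set (COL1A1, COL1A2, COL3A1, COL6A1, COL6A2, COL6A3, DCN, LUM and PDGFRA) summed to 258 CPM in BFRTV8d, 0.72 CPM in GMECs and 11327 CPM in fibroblasts. At least 2 of their UMIs were found in 5.35% of thinned BFRTV8d cells (4.92 to 5.81) and in 96.6% of fibroblasts. In GMECs this held for 0 of 4680 cells, where counting error alone allows a share of up to 0.0788%. The GMECs table lists only 2 of the 9 genes. Before thinning, at least 2 UMIs of the set were found in 831 of 10152 BFRTV8d barcodes (8.19%), which had a median of 12624 UMIs against 8870 for the others. These barcodes held 91.2% of the MMP2 UMIs, 92.1% of the PRRX1 UMIs, 92.9% of the CRABP1 UMIs and 77.0% of the GPX3 UMIs of the table, although none of these genes was used to choose them. For ID1, KRT14 and IGF1R they held 7.45%, 5.61% and 9.47%, against 11% of all UMIs. Without them 888 genes were past 4-fold upward and 372 downward, and the median log2 ratio of the fibroblast list was 1.44. The summed table does not tell fewer cells of a type from less RNA per cell, which is why cell shares are given beside the levels.

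Other mesenchymal genes varied in how far they were confined to these barcodes. SNAI2, a zinc finger factor of basal and mesenchymal cells, was at 213 against 14.4 CPM (14.8-fold, 13.9 to 15.7), in 46.1% against 4.29% of cells, and the fibroblast-set barcodes held 8.59% of its UMIs. SPARC was found in 39.0% of BFRTV8d cells against 0.0855% of GMECs cells, and 27.3% of its UMIs lay in the fibroblast-set barcodes. Of the 6 compared mesenchymal transcription factors, 5 were at least 2-fold higher, TCF4 by 88.9-fold, OSR2 by 24.6-fold and MSX1 by 7.65-fold beside PRRX1 and SNAI2, and OSR1 was 2.41-fold lower. The microfibril genes MFAP2 and FBN1 were 134-fold and 53.9-fold higher, at 14.9 and 13.4 CPM, and the crosslinking enzymes LOXL1 and LOX 20.1-fold and 7.91-fold higher. The fibroblast-set barcodes held 76.2% of the LOX, 74.9% of the FBN1, 45.5% of the MFAP2, 30.1% of the MSX1 and 24.2% of the TCF4 UMIs, but 6.82% of those of OSR2. COL12A1 was 7.90-fold and the surface antigen THY1 3.54-fold higher, and S100A4 was at 2444 against 1258 CPM.

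Contractile genes, which mark myoepithelial cells and fibroblasts alike, were higher for 7 of 10 compared members and lower for 1, with a median log2 ratio of 2.03. Smooth muscle actin ACTA2 was at 285 against 15.4 CPM (18.5-fold, 17.4 to 19.7), in 47.6% against 4.49% of cells, with 203 CPM in fibroblasts. The myosin kinase MYLK was at 160.5 against 19.2 CPM (8.34-fold) and only 5.56 CPM in fibroblasts. TPM2, a tropomyosin, was 71.4-fold higher at 60.4 against 0.845 CPM, and without the fibroblast-set barcodes its log2 ratio went from 6.16 to 4.39. The regulatory light chain MYL9 was at 122 against 340.04 CPM (2.79-fold lower). TAGLN, at 162 against 81.7 CPM, was below both fibroblasts (1318 CPM) and CiMECs (3070.2 CPM).

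Interferon-stimulated genes were higher in the induced cells almost throughout. Of 25 compared members, 21 were higher by 2-fold or more and 0 lower, with a median log2 ratio of 2.68 and a summed level of 8902 against 482 CPM. IFI6, a mitochondrial antiviral protein, was at 6707 CPM in BFRTV8d, 107 CPM in GMECs, 98.2 CPM in fibroblasts and 1292 CPM in CiMECs. It was thus 62.7-fold higher than in GMECs (61.3 to 64.1) and was found in 99.8% against 19.7% of cells. MX2, an antiviral GTPase, was at 121 against 0.457 CPM (264-fold, 188 to 384), IFI44 at 52.0 against 0.914 CPM (56.8-fold) and IFI44L at 198 against 4.60 CPM (43.0-fold). The ubiquitin-like ISG15 was at 370.0 against 24.5 CPM (15.1-fold) and MX1 at 258 against 34.5 CPM (7.49-fold). The median cell held 24 UMIs of the list per 3000 in BFRTV8d and 1 in GMECs, and 99.9% of BFRTV8d cells were above the GMECs median. Antigen presentation genes did not share this. Among 10 compared members, TAP1, a peptide transporter, was 2.08-fold higher, ERAP2 and the chaperone CALR were 2.16-fold and 2.25-fold lower, and the median log2 ratio was 0.06.

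Among 19 cytokine and defence genes, 8 exceeded 2-fold upward and 4 downward, with a median log2 ratio of 0.85. The neutrophil chemokine CXCL8 was at 2397 against 54.4 CPM (44.1-fold, 42.7 to 45.5), in 93.4% against 9.81% of cells, and at 802 CPM in fibroblasts. IL1A was 13.8-fold higher at 208 against 15.1 CPM, and its antagonist IL1RN 6.87-fold lower at 5.67 against 39.0 CPM. S100A8, a subunit of calprotectin, was at 3822 against 371 CPM (10.3-fold, 10.2 to 10.4). CXCL12 was listed only for BFRTV8d, at 82.1 CPM. Most of its UMIs lay in the fibroblast-set barcodes, with 703 CPM there and 5.57 CPM in the other BFRTV8d barcodes. By contrast, CCL17 and the membrane chemokine CXCL16 (2.84-fold lower) were higher in GMECs. Summed over the list the level was 8260 CPM in BFRTV8d and 35040.4 CPM in GMECs, of which CCL17 made up 33678 CPM.

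Genes of cell division were lower in the induced cells. Of 17 compared S phase genes, 14 were lower by 2-fold or more and 0 higher, with a median log2 ratio of -1.73, and of 25 genes of G2 and mitosis 0 were higher and 22 lower, with a median of -2.05. MKI67, which marks cycling cells, was at 5.78 against 57.0 CPM (9.86-fold lower, 9.05 to 10.8), and at 44.1 CPM in fibroblasts and 6.13 CPM in CiMECs. RRM2, a subunit of ribonucleotide reductase, was at 3.02 against 59.1 CPM (19.6-fold lower, 17.5 to 22.0). The replicative helicase subunits MCM5, MCM2 and MCM4 were 16.6-fold, 9.59-fold and 7.89-fold lower. The mitotic genes CDC20 and CENPE were 11.2-fold and 6.79-fold lower, and the tubulin TUBB4B was at 78.5 against 513 CPM (6.53-fold lower). The median cell held 1 UMI of the G2 and mitosis list per 3000 in BFRTV8d (90th percentile 4) and 4 in GMECs (90th percentile 19).

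D-type cyclins, which drive entry into the cycle, were divided. CCND1 was at 260 against 947 CPM (3.64-fold lower, 3.59 to 3.70) and CCND3 3.45-fold lower, whereas CCND2 was at 253 against 20.6 CPM (12.2-fold higher, 11.6 to 12.9). Among genes of arrest, the stress cytokine GDF15 was 24.2-fold, IGFBP7 23.3-fold and BTG1 12.4-fold higher, and GADD45B was 4.63-fold lower. CDKN1A, the inhibitor p21, was at 303 against 394 CPM, within 2-fold. The list of inhibitors and senescence genes also holds CCND1, CCND2 and CCND3, so its counts do not stand for arrest genes alone. Of its 17 compared members, 7 were past 2-fold upward, CCND2 among them. The 3 past 2-fold downward were CCND1, CCND3 and GADD45B. The median log2 ratio was 0.46 and turned to -0.38 at a minimum of 50 CPM.

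Early response, retinoid and WNT genes differed mostly in favour of the induced cells. Of 25 compared cAMP and early response genes, 16 were at least 2-fold higher and 3 lower, with a median log2 ratio of 1.67. EGR1, an immediate early factor, was at 701 against 58.8 CPM (11.9-fold, 11.6 to 12.3), in 84.4% against 16.4% of cells, and MYC at 279 against 32.1 CPM (8.70-fold). EGR3 was at 28.4 against 0.568 CPM, and the cAMP phosphodiesterase PDE4D was 127-fold higher at 33.6 CPM. FOSB, NR4A1 and SIK1, early response genes as well, were 4.24-fold, 2.04-fold and 2.11-fold lower. In the retinoid list, 6 of 11 were higher and 2 lower, with a median log2 ratio of 1.34 that was 0.58 without the fibroblast-set barcodes. DHRS3, a retinaldehyde reductase induced by retinoic acid, was at 1344 against 22.6 CPM (59.5-fold, 56.6 to 62.5), at 2.51 CPM in fibroblasts, and in 97.2% against 6.67% of cells. RBP4, a retinol carrier, was 14.2-fold higher, and RDH10, a retinol dehydrogenase, 2.52-fold lower beside the retinoid target TGM2. CRABP1, 171-fold higher at 28.5 against 0.166 CPM, was found in 1.61% of BFRTV8d cells.

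WNT genes were at least 2-fold higher for 8 of 14 members and lower for 1, with a median log2 ratio of 1.27. SFRP1 was at 152 against 0.36 CPM (423-fold, 289 to 648), in 34.1% against 0.0855% of cells, the receptor FZD7 was 36.4-fold and the receptor ligase RNF43 20.1-fold higher, and WNT5A was listed only for BFRTV8d at 18.9 CPM. DKK1 was the exception, at 1.37 against 96.1 CPM (69.9-fold lower, 59.2 to 83.2). Among 23 growth factors and receptors, 11 were at least 2-fold higher and 5 lower. IGF1R was found in 64.8% against 0.171% of cells, and PTHLH, a parathyroid hormone-like peptide, was 42.2-fold higher at 78.4 against 1.86 CPM. The peptide ligands NPPC and EDN3 were listed only for BFRTV8d, at 243 and 137 CPM, at least 1950-fold and 1097-fold higher. FGFBP1, a carrier of fibroblast growth factors, was at 37.6 against 236 CPM (6.26-fold lower), PDGFB 14.7-fold, EDN1 4.06-fold, MST1R 2.36-fold and TGFA 2.06-fold lower.

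The TGF-beta list spanned ratios as far apart as those of ID1 and ANKRD1, at a median log2 ratio of -0.19 over 19 members (0.43 with ribosomal protein genes kept in the totals). Its 7 members past 2-fold in favour of BFRTV8d were ID1, ID2, ID3, TGFBI, TGIF1, TGFB1 and CTGF. ID3 was at 2377 against 198 CPM (12-fold, 11.8 to 12.2) and the matrix protein TGFBI at 211 against 8.98 CPM (23.5-fold). TIMP3, PMEPA1, LTBP1 and ANKRD1 were among the 5 members at least 2-fold lower. Transcripts of matrix proteases and their inhibitors differed in a similar mixed way. The gelatinases MMP2 and MMP9 were 541-fold and 56.0-fold higher and ADAMTS1 33.6-fold, whereas the inhibitors TIMP1, TIMP3 and TIMP2 were 17.4-fold, 6.04-fold and 2.68-fold lower. The fibroblast-set barcodes held 91.2% of the MMP2 and 45.2% of the ADAMTS1 UMIs of BFRTV8d, but 10.2% of those of MMP9. TIMP1 was at 84.3 against 1465 CPM, with 731 CPM in fibroblasts and 5438 CPM in CiMECs. The urokinase gene PLAU was 2.99-fold lower at 160.1 against 479 CPM.

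Genes of stratified and skin epithelium were higher in part. Of 15 keratinocyte differentiation genes, 8 were at least 2-fold higher and 3 lower, with a median log2 ratio of 1.06. ZNF750, a TP63-dependent factor, was at 98.8 against 7.43 CPM (13.3-fold) and the serpin SERPINB5 9.68-fold higher. LY6D was 20.2-fold higher at 42.0 against 2.08 CPM and was at 1826 CPM in fibroblasts. LYPD3, the envelope protein PPL and the crosslinking enzyme TGM1 were 8.18-fold, 2.61-fold and 2.25-fold lower. CRNN, cornulin, a protein of squamous epithelium, was listed only for GMECs, at 135 CPM, at least 606-fold higher there. All 4 compared skin appendage genes were at least 2-fold higher, namely TFAP2A (4.01-fold), LRIG1 (3.22-fold), PRDM1 (2.80-fold) and SOX9 (2.35-fold, 425 against 181 CPM).

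Stress and metabolic lists are given by their counts. In the oxidative stress list 10 of 23 were at least 2-fold higher and 3 lower. GPX2, an epithelial glutathione peroxidase, was at 1122 against 33.7 CPM (33.3-fold, 32.0 to 34.6), the glutathione transferase GSTM3 at 674 against 13.1 CPM (51.4-fold) and GCLC, of glutathione synthesis, 23.4-fold higher. The secreted peroxidase GPX3 was opposite, at 95.9 against 2152 CPM (22.5-fold lower, 22.0 to 22.9), in 9.81% against 99.4% of cells, and without the fibroblast-set barcodes its log2 ratio went from -4.49 to -6.44. GPX4 and PRDX5 were 3.14-fold and 2.03-fold lower. The gene most abundant among those listed only for BFRTV8d, LOC102174170, for which RefSeq gives the name GSTA3, a glutathione transferase, was at 3640 CPM there and 0.162 CPM in fibroblasts. In the amino acid and unfolded protein list 13 of 24 were higher and 2 lower, with a median log2 ratio of 1.48, led by the serine synthesis enzyme PHGDH (130.1 against 4.34 CPM, 30.0-fold), the transporter SLC7A5 (12.1-fold), TRIB3 (10.9-fold) and DDIT4 (10.6-fold), while SDF2L1 was 7.90-fold lower.

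Genes of glycolysis and hypoxia were at least 2-fold higher for 10 of 23 members and lower for 1. ADM, adrenomedullin, a peptide induced by hypoxia, was at 706 against 3.45 CPM (205-fold, 181 to 233), in 75.9% against 0.662% of cells. The glucose transporter SLC2A1 was at 449 against 39.8 CPM (11.3-fold), and ENO2 and EGLN3 were 22.8-fold and 18.4-fold higher. The central enzymes differed less, since GAPDH was at 2308 against 1947 CPM, and TPI1 was 2.05-fold lower. Nuclear genes of oxidative phosphorylation were lower as a group, with 13 of 42 lower by 2-fold or more, 0 higher and a median log2 ratio of -0.77 (-0.15 with ribosomal protein genes kept in the totals). ATP5G1, ATP5B and NDUFB2, subunits of ATP synthase and complex I, were 2.81-fold, 2.51-fold and 2.29-fold lower. Of 32 proteasome genes 0 were higher and 8 lower, with PSMD8 3.88-fold lower, at a median of -0.55 that went to 0.07 with ribosomal protein genes kept. Translation factors gave 7 of 33 higher, led by EIF3E (3.66-fold), and 3 lower, and heat shock genes 1 of 20 higher and 3 lower, among them CRYAB, a small heat shock protein, at 13.1 against 302 CPM (23.1-fold lower). HSPB8, another small heat shock protein, was listed only for BFRTV8d, at 124 CPM.

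**Figure D4:**
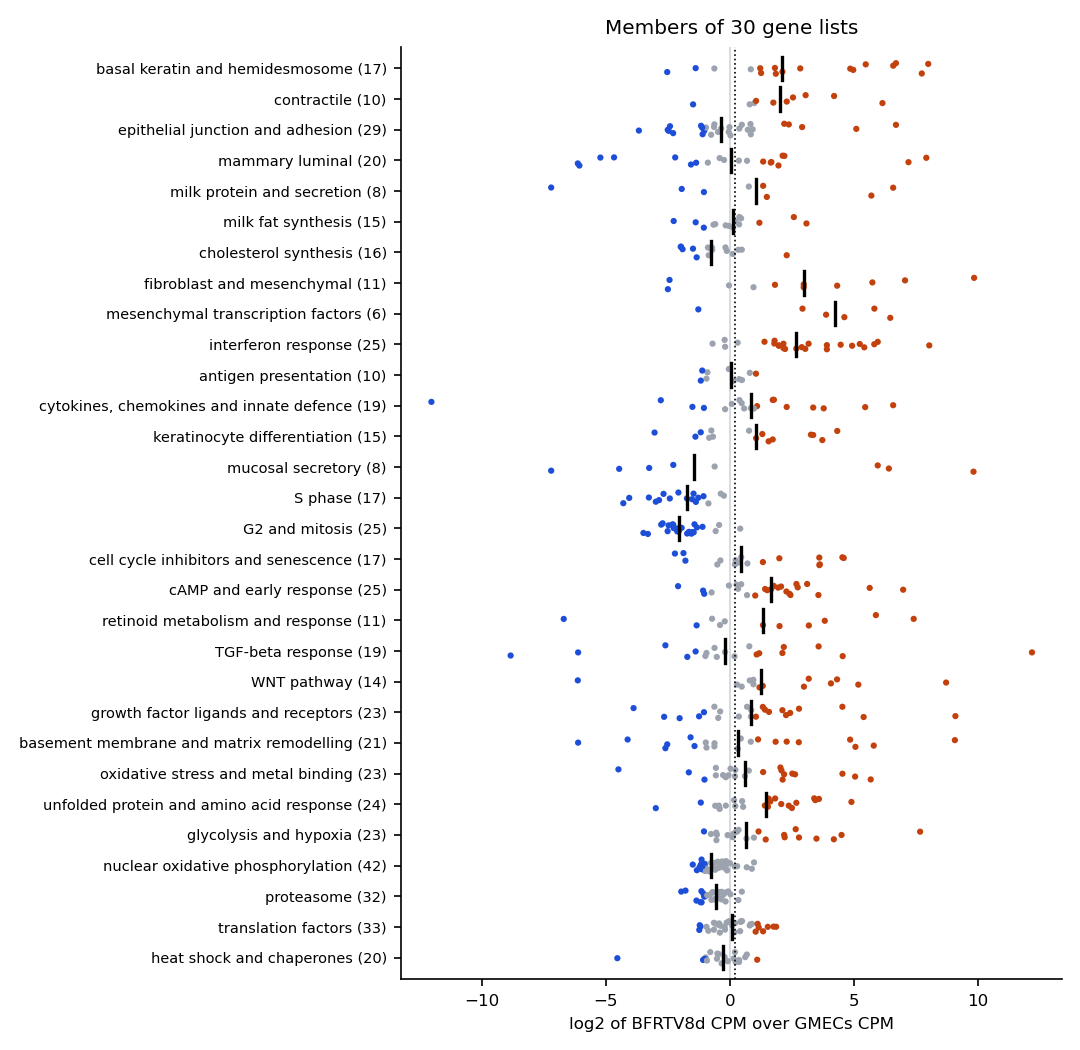
Log2 ratio of BFRTV8d CPM over GMECs CPM for the compared members of 30 gene lists, each point 1 gene, with the number of members in brackets, black bars at list medians and the dotted line at the median of all genes (0.19). Orange points are higher and blue points lower by 2-fold or more, and the cell division lists lie to the left (medians -1.73 and -2.05) and the interferon and basal lists to the right (2.68 and 2.12).

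Genes tied to plasticity and position were also examined. All 4 compared reprogramming genes were at least 2-fold higher, MYC by 8.70-fold, KLF4 by 2.85-fold, KLF5 by 2.82-fold and TFCP2L1 by 2.44-fold, and SOX2 was listed only for BFRTV8d at 21.2 CPM, while POU5F1 and NANOG were not listed in either table. Of 22 histone and DNA modifiers, 10 were at least 2-fold higher, led by HDAC11 (20.3-fold, 14.4 against 0.707 CPM) and HDAC4 (6.73-fold), and 2 were lower, namely the maintenance methyltransferase DNMT1 (2.64-fold) and HDAC7 (2.03-fold). No HOX gene met the limit of 10 CPM in a gene listed in both tables, and HOXB7 was at 2.94 against 6.37 CPM. Of 35 HOX genes, 14 were listed only for BFRTV8d and 0 only for GMECs, against 1701 and 567 among all genes. Only HOXA5 of the 14 reached 10 CPM, at 10.5 CPM.

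Markers of other cell types were sparse in both tables. The immune marker set summed to 6.52 CPM in BFRTV8d and 2.85 CPM in GMECs, and the endothelial set to 2.79 and 0.596 CPM. Each table listed only 1 of the 4 immune and 2 of the 4 endothelial markers, so these sums leave out the others. The epithelial set summed to 11324 and 25581 CPM and had at least 2 UMIs in 98.6% and 100% of cells. Epithelial markers were thus found in nearly all cells of both groups. In the wider lists, LCP1 and CD14, which macrophages express, were 2.52-fold and 2.80-fold lower, the pericyte gene NOTCH3 was 4.36-fold higher, the adipocyte factor CFD 8.11-fold lower and the neuronal MAP2 11.1-fold higher. STMN2, a neuronal tubulin-binding protein, was listed only for BFRTV8d, at 51.9 CPM, and was at 60.7 CPM in fibroblasts.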

How the data were processed

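Droplet libraries (10x Genomics 3′ kit, version 2) were described by 11 samples in 5 groups. The authors deposited 1 table of raw UMI counts per gene and barcode for each group, and per the labels FastQC 0.10.1 and Cell Ranger are named in the submitters' processing notes. Not given in the sources used here: genome build, annotation, read counting options. The tables had been filtered differently, as described. Counts were summed per gene, the 74 ribosomal protein genes left out, and CPM ratios computed with exact conditional binomial intervals (SciPy 1.17.1, NumPy 2.4.6, pandas 2.3.3, Python 3.11.15). The ratio and thinning steps were tested on simulated data. With 1 library per group no test was run, so "at least 4-fold" and "at least 2-fold" replace one. Doublets were not called; leaving out the 10% of barcodes with most UMIs is an alternative. Members and the 42 gene lists (1085 entries) were chosen with earlier results of these data known.

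Genes were named by rule: the 15 highest and 15 lowest ratios among genes with at least 50 CPM in 1 table, the 4 largest ratios of each list, members at least 2-fold against a list's median, all members of 5 mammary and mesenchymal lists, the 10 most abundant genes of each table and the 8 highest genes of 1 table. Others (CDH1, CLDN1, CLDN4, CLDN7, EPCAM, JUP, DSP, ISG15, MX1, CDKN1A, GAPDH, CXCL12, LTBP1, PMEPA1, MUC13, SOX2, STMN2, WNT5A, HOXA5, HOXB7, TAGLN, KRT35, SOSTDC1, LOC102179515 and LOC102177275) were chosen after their values were seen. A few genes that the rule names are not reported here. Other names and gene order came from RefSeq (assembly ARS1.2), which held 8344 of the compared symbols. Alternatives were TMM (edgeR 4.0.16), median-of-ratios, other totals, weights, depths, minima and barcode filters.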

Additional observations from a re-analysis of the deposited data

How the results depend on the processing

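Counts of genes past 4-fold stayed within 1.5 times of 900 higher and 367 lower except in these cases. With ribosomal protein genes kept in the totals 1526 were higher and 176 lower, at a minimum of 50 CPM 381 and 163, and with no minimum 1686 and 631. Beside the TMM and median-of-ratios splits given above, the cause of these changes is the number of genes compared (3290 at 50 CPM, 13597 with no minimum) or the total itself. The share of cells with both keratin classes was 97.4% in BFRTV8d and 77.2% in GMECs as reported, 99.8% and 88.8% without thinning, 93.6% and 59.6% at 1500 UMIs, and 94.2% and 54.2% when at least 2 UMIs of each class were asked. Medians of 1 or more in size turned sign for mucosal secretory genes (2.68 at 50 CPM, 5.97 with genes of 1 table at the floor), for the 2 immune genes (0.39 with no minimum, where 5 more genes enter) and for the 3 chondrocyte genes (-0.91 with TMM, -0.93 with median-of-ratios). Medians nearer 0 turned too, such as mammary luminal (-0.88) and antigen presentation (-0.90) at 50 CPM and endothelial (0.38 with no minimum). Of the named genes at least 2-fold apart, 33 dropped under 2-fold with ribosomal protein genes kept, among them KRT19 (log2 ratio -0.74) and KRT7 (-0.94), and 9 or fewer under any other setting, among them TBX3 after thinning (0.75). Thinning moved 16 named genes by over 1.5 times, for example PDE4D from 6.99 to 8.93, HCAR2 from 8.44 to 10.21, TFAP2B from 7.93 to 9.34 and ATP6V1B1 from 9.83 to 8.72, and equal weights moved CERS4 from 9.65 to 8.18 and MMP2 from 9.08 to 8.14. Without the fibroblast-set barcodes the log2 ratio of FLNC went from -6.15 to -7.97, of FN1 from -2.43 to -3.03 and of ADAMTS1 from 5.07 to 4.37, and without the 10% of barcodes with most UMIs that of CRABP1 went from 7.42 to 6.32 and of KRT14 from 7.74 to 8.61. No paired analysis was possible because the barcodes carry no sample, and for the same reason no replicate could be left out. Depth limits the shares of cells.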

Other observations

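Uncharacterised genes beside keratin genes showed some of the largest differences at high level. LOC102179515, which lies between KRT36 and KRT19 in the RefSeq gene order of goat, was at 3502 CPM in BFRTV8d, 23.2 CPM in GMECs, 7.66 CPM in fibroblasts and 6.58 CPM in CiMECs. It was 151-fold higher in BFRTV8d than in GMECs (exact 95% interval 144 to 159). LOC102177275, which follows KRT14 with 2 other genes between them, was at 2566 against 15 CPM (171-fold, 162 to 182), but unlike the former was at 561 CPM in fibroblasts and 2488 CPM in CiMECs. KRT35, a hair keratin, was listed for BFRTV8d at 41.7 CPM and not for GMECs. Reads of near-identical keratin genes may be shared between copies, and how such reads were counted is not stated, so these levels are uncertain.

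A few further genes were listed only for BFRTV8d at high level, among them the calcium-activated chloride channel regulator CLCA2 (102 CPM) and the phosphatase PTPRS (102 CPM), each at least 821-fold higher, FAM129A (111 CPM) and the BMP antagonist SOSTDC1 (71.4 CPM). Only for GMECs, BIN2 was at 40.1 CPM, the guidance receptor ROBO3 at 31.1 CPM and the globin gene HBBC at 18.7 CPM, at least 180-fold, 140-fold and 83.8-fold higher there.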
